A study of Mus musculus with 7 samples.

Results

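The genes described here are 25 immediate-early genes and 10 heat shock genes, chosen by name, in basal cells of the lactating mouse mammary gland. Each was taken as the row of the deposited expression table that carries its symbol, and 34 of the 35 were found, 24 immediate-early and 10 heat shock, in a table of 56440 rows of which 31483 were above 0 in any library. No row carried the symbol Dusp5, and that gene was not analysed here. Hspa1a and its near-identical neighbour Hspa1b share 1 row, called Hspa1a below, so reads of the pair cannot be told apart. All 34 genes had a normalised read count of at least 10 in at least 3 libraries and were tested.

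RNA was sequenced from basal cells, the layer of contractile myoepithelial cells that surrounds the milk-producing luminal cells, sorted by flow cytometry from fresh glands on day 2 of lactation after digestion with trypsin. The genotype a3a6KO, which lacks integrin α3 and integrin α6 by its name and is Blg positive by its titles, had 3 libraries, and the control genotype (Ctrl), Blg negative by its titles, had 4. Blg is understood here as a Cre driven by the beta-lactoglobulin promoter, which is active in luminal cells, so the comparison asks how neighbouring basal cells differ when the laminin-binding integrins of the luminal layer are targeted. Every mutant and no control was Blg positive, so the Cre and the loss of the integrins cannot be told apart. No luminal cells were analysed here, and the labels give no strain, age, litter, batch or duration of digestion.

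Immediate-early genes are transcribed as soon as a cell receives a growth factor, a mechanical stimulus or a stress. No new protein synthesis is needed, because factors such as SRF and CREB already occupy their promoters. Kinase signalling acts through these factors or their partners. Many encode transcription factors, and others encode phosphatases or RNA-binding proteins that shut the same response off. Heat shock genes encode chaperones, and their classical activator HSF1 is released when unfolded proteins occupy those chaperones. Both families are known to be induced in many tissues while cells are being separated by enzymes and sorted, so their transcripts in sorted cells can reflect the isolation as well as the living tissue.

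Library depth is given as reads recovered from the deposited gene values. These numbered 18454773, 10861835 and 9368418 in a3a6KO replicates 1 to 3 and 14480615 to 21548279 in Ctrl. The sort was checked on 10 basal markers, whose summed normalised read count was 891530 to 1001100 in a3a6KO and 792110 to 1077100 in Ctrl, led by Acta2, the smooth muscle actin, and Oxtr, the oxytocin receptor. Transcripts of 12 luminal markers, led by those of the milk proteins, summed to 104320 to 365190 in a3a6KO and 136260 to 824790 in Ctrl. The values are normalised for library size and not for gene length, and in bulk RNA a smaller number of cells of a type and less RNA per cell cannot be told apart.

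Immediate-early transcripts were among the most abundant in these cells, and their share of the RNA overlapped between the genotypes. The 24 genes took up 5.18%, 2.80% and 3.48% of the total value in a3a6KO replicates 1 to 3, against 3.37%, 5.02%, 4.63% and 2.72% in Ctrl replicates 1 to 4. The means were 3.82% ± 1.23 (SD, n = 3) in a3a6KO and 3.94% ± 1.07 (SD, n = 4) in Ctrl. Fos alone made up 0.901% to 1.44% of the total in a3a6KO and 0.776% to 1.57% in Ctrl. The 10 heat shock genes took up 1.80%, 1.16% and 1.47% in a3a6KO and 1.53%, 1.82%, 1.30% and 1.25% in Ctrl, with means of 1.48% ± 0.320 (SD, n = 3) in a3a6KO and 1.48% ± 0.260 (SD, n = 4) in Ctrl. For both families the groups overlapped, and the difference of the means was smaller than the SD within either group.

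**Figure D1:**
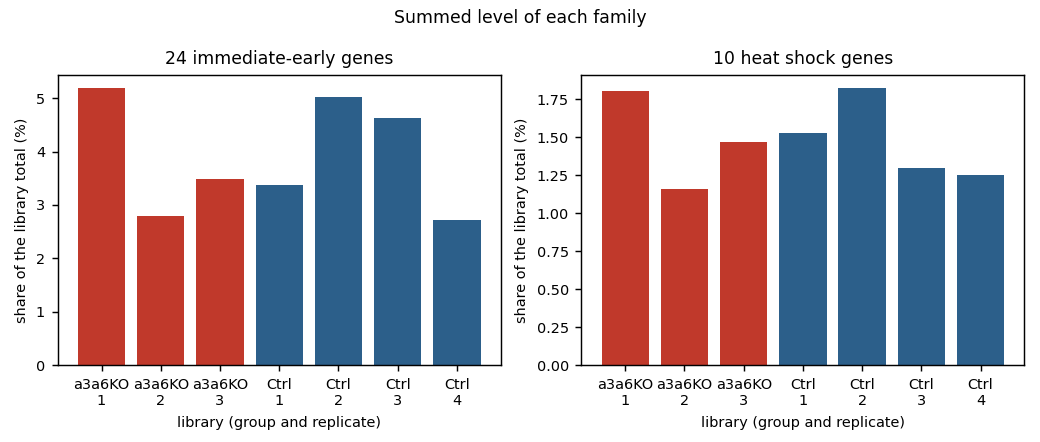
Share of the library total (%) taken by the 24 immediate-early genes (left) and the 10 heat shock genes (right), 1 bar per library, a3a6KO in red and Ctrl in blue. In both families each group has libraries at the high and at the low end, from 2.80% to 5.18% in a3a6KO and 2.72% to 5.02% in Ctrl for immediate-early genes.

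On a scale corrected for gene length (the mean value over all 7 libraries divided by the length of all annotated exons in kilobases), Fos ranked 4 among 12991 genes with a known length, at 73100 per kilobase. The small heat shock gene Hspb1 ranked 9, Atf3 16, Jun 23 and Egr1 24. In all, 9 immediate-early and 4 heat shock genes were in the top 100, and 19 and 7 in the top 1000. At the other end of the families, Hspd1 ranked 2562, Nr4a2 2488, Egr3 2300 and Fosl1 2181.

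No member passed the test between the genotypes. In limma, 0 of 34 members passed an adjusted p of 0.05 over all genes tested, where 0.0% of the 16889 genes did, and 0 had an unadjusted p under 0.05, against 6.32% of all genes. The edgeR quasi-likelihood test on whole reads called 0 members (0.0% of all genes; 0 members at an unadjusted p under 0.05, against 5.98% of genes), and DESeq2 called 0 (0.454% of genes; 0 members at an unadjusted p under 0.05, against 6.73%). In none of the 34 was every a3a6KO library above or below every Ctrl library, a pattern held by 7.51% of all genes (4.0% higher and 3.51% lower in a3a6KO). The median log2 fold change, taken as a3a6KO minus Ctrl after adding 1 to each value, was 0.09 over the immediate-early genes and −0.06 over the heat shock genes, beside −0.004 over all genes tested. Of the immediate-early genes 17 had a fold change above 0 and 7 below, and of the heat shock genes 4 above and 6 below, where 49.5% of all genes were above and 50.5% below. The smallest unadjusted p among the members was 0.256, for Nr4a2.

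A p above the threshold does not show that the genotypes were alike, since the libraries of each group differed widely among themselves. The standard error of the log2 fold change had a median of 0.34 over the immediate-early genes and 0.26 over the heat shock genes, beside 0.26 over all genes tested and 0.16 over the 2565 genes with a mean value of at least 1000. The SD of log2 values within groups had a median of 0.54 and 0.39 for the 2 families, beside 0.34 over all genes tested and 0.21 over those with a mean of at least 1000. For Fos the 95% interval of the log2 fold change ran from −0.73 to 0.57, and for Hspa1a from −0.61 to 0.67. Changes within those bounds remain possible. The intervals are not adjusted for the number of genes tested, so larger changes could also miss the adjusted threshold, which no gene passed in limma.

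**Figure D2:**
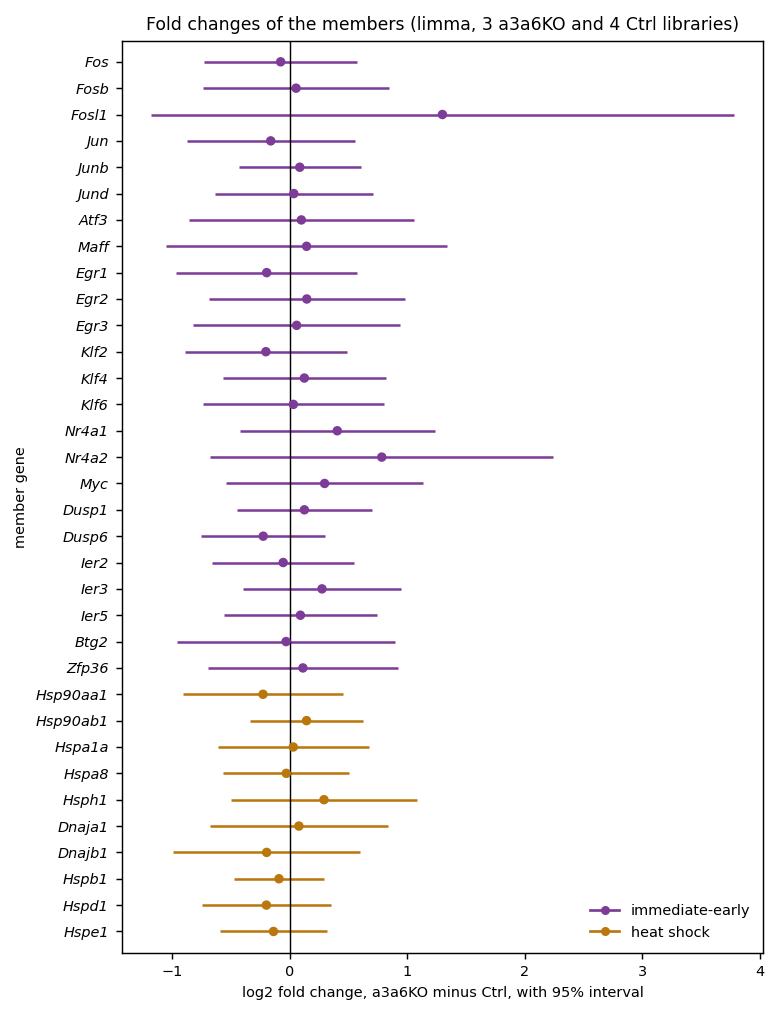
Log2 fold change of each of the 34 members, a3a6KO minus Ctrl, as a point with its 95% interval from limma (3 a3a6KO and 4 Ctrl libraries), immediate-early genes in purple and heat shock genes in ochre. Every interval crosses 0, and the widest is that of Fosl1, from −1.18 to 3.78.

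The first group of members encodes AP-1, the dimeric factor of FOS, JUN and related basic leucine zipper proteins. Fos (chromosome 12, 85473889 to 85477273, mm10), whose product dimerises with JUN, had normalised read counts of 219892, 131090 and 150101 in a3a6KO replicates 1 to 3, against 165606, 225801, 184722 and 126460 in Ctrl replicates 1 to 4. The highest and the lowest of the 7 values were both controls. Jun (chromosome 4, 95049036 to 95052222) had 101489, 47501 and 48933 in a3a6KO and 73869, 87277, 71956 and 49197 in Ctrl, a log2 fold change of −0.16 (limma, SE 0.32 and adjusted p = 0.931). One mutant lay above all controls and the others just below the lowest control, and the sign of the fold change turned without a3a6KO replicate 2 (0.028) and without a3a6KO replicate 3 (0.0065). Junb averaged 35120 ± 9635 (SD, n = 3) in a3a6KO and 32533 ± 5235 (SD, n = 4) in Ctrl, and Jund, the most constitutive JUN gene, 8289 ± 2874 in a3a6KO and 8026 ± 2474 in Ctrl. Both differences were well below the SD within the groups.

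Atf3, a stress-induced relative of the JUN proteins, had 73241, 30731 and 84567 in a3a6KO and 31693, 66731, 84102 and 46761 in Ctrl, so that the lowest and the highest libraries of each genotype were nearly level. Fosb, a relative of FOS, ranged from 8467 to 15709 in a3a6KO and from 7422 to 18141 in Ctrl. Maff, a small MAF factor without an activation domain of its own, had 851, 405 and 2066 in a3a6KO and 420, 803, 1144 and 1106 in Ctrl. Fosl1, which encodes FRA1 and in many cells is induced later than Fos because AP-1 itself activates it, spread the most of all members. It had 350, 128 and 2530 in a3a6KO and 45.2, 141, 311 and 734 in Ctrl, a 56.0-fold range over the 7 libraries. Its log2 fold change was 1.30 (limma, SE 1.10 and adjusted p = 0.867), and without a3a6KO replicate 3 it was 0.11.

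The ratio of Fosl1 to Fos within a library showed that the late and the early gene did not move together. Per 1000 normalised reads of Fos there were 1.59, 0.976 and 16.9 of Fosl1 in a3a6KO replicates 1 to 3 and 0.273, 0.626, 1.68 and 5.80 in Ctrl replicates 1 to 4. The value of a3a6KO replicate 3 was the highest, and Ctrl replicate 4, with the lowest Fos of all libraries, came next. This ratio, like the other ratios given below, was chosen after the values were seen.

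**Figure D3:**
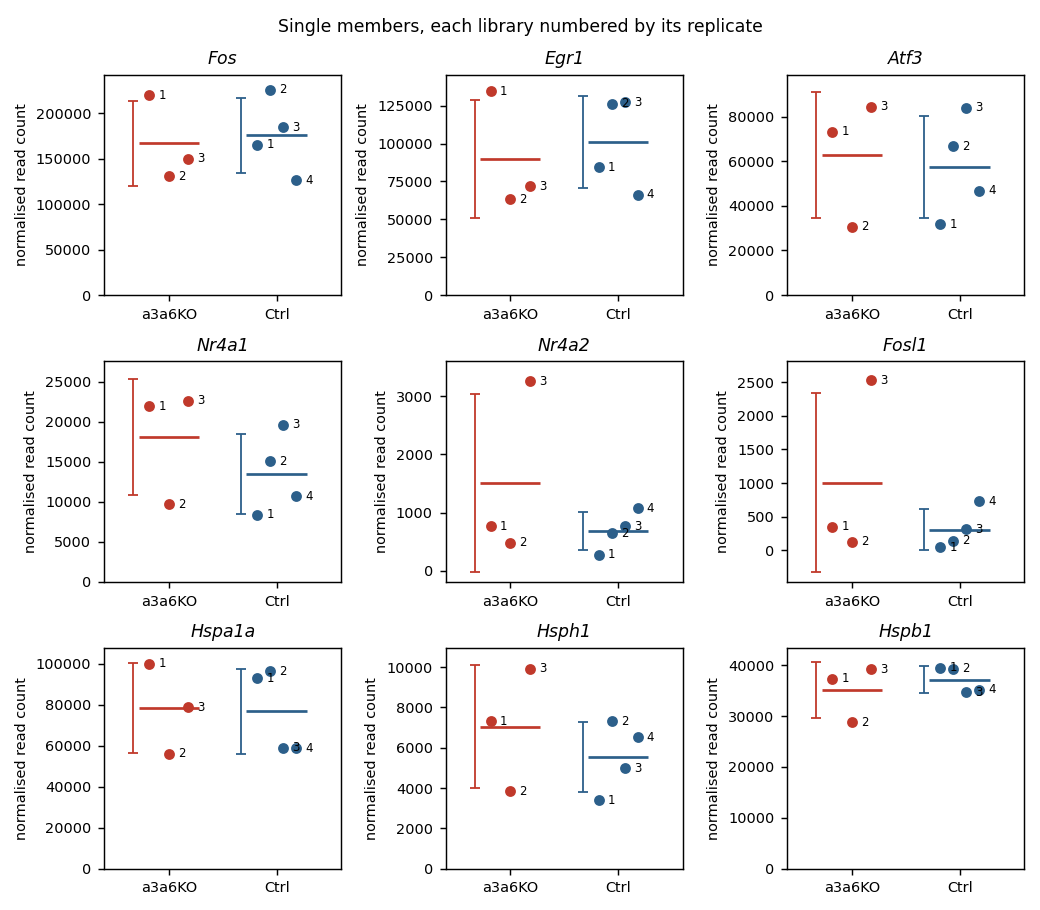
Normalised read counts of 9 members in each library, a3a6KO in red on the left and Ctrl in blue on the right of each panel, with the replicate number beside each point, the group mean as a line and the SD as an error bar. The groups overlap in every panel, and a3a6KO replicate 3 stands far above the other libraries for Fosl1 (2530) and Nr4a2 (3265) but not for Fos (150101).

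The second group comprises zinc finger, orphan nuclear receptor and MYC factors. Egr1 (chromosome 18, 34859823 to 34864981), a zinc finger factor downstream of SRF, had 134501, 63436 and 71972 in a3a6KO and 84367, 126383, 127215 and 66251 in Ctrl, a log2 fold change of −0.20 (limma, SE 0.34 and adjusted p = 0.925) that turned to 0.015 without a3a6KO replicate 2. Its paralogue Egr2 ranged from 6994 to 15749 in a3a6KO and from 6322 to 15589 in Ctrl, and Egr3 from 705 to 2430 in a3a6KO and from 784 to 1362 in Ctrl. Each genotype covered nearly the full range of Egr2, whereas for Egr3 the top value stood apart in a3a6KO replicate 3. Per 1000 normalised reads of Egr1 there were 33.8 of Egr3 in that library, at most 11.1 in the other mutants and 9.30 to 16.7 in Ctrl.

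Nr4a1, which encodes the orphan nuclear receptor NUR77, had 21950, 9686 and 22601 in a3a6KO and 8381, 15049, 19624 and 10659 in Ctrl, with means of 18079 ± 7276 (SD, n = 3) in a3a6KO and 13429 ± 4972 (SD, n = 4) in Ctrl. Its log2 fold change of 0.40 (limma, SE 0.37 and adjusted p = 0.873) kept its sign in all 7 fits that left out 1 library, from 0.19 to 0.81, but 2 mutants lay above the highest control and the third below 3 of the 4 controls. Nr4a2, the related NURR1 gene, had 762, 484 and 3265 in a3a6KO and 276, 644, 764 and 1072 in Ctrl. Its log2 fold change was 0.78 (limma, SE 0.65 and adjusted p = 0.860) and −0.025 without a3a6KO replicate 3, so its direction rested on that library. Myc, the growth regulator, followed the same library, with 3046, 1468 and 4646 in a3a6KO and 1471, 2520, 2910 and 2322 in Ctrl, a log2 fold change of 0.30 (limma, SE 0.37 and adjusted p = 0.900) that turned to −0.08 without it.

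Of the Krüppel-like factors, Klf2, which endothelial cells express strongly under blood flow, had 1942, 835 and 1244 in a3a6KO and 1249, 1666, 2031 and 1058 in Ctrl, a log2 fold change of −0.20 (limma, SE 0.31 and adjusted p = 0.918) that turned to 0.10 without a3a6KO replicate 2. All 14 endothelial markers had a fold change above 0, and their summed value was 10150 to 14218 in a3a6KO and 4767 to 8069 in Ctrl, with no overlap. Their part in the level of Klf2 was not tested. Klf4, known from epithelial barriers and from the reprogramming factors, averaged 2111 ± 713 (SD, n = 3) in a3a6KO and 1927 ± 648 (SD, n = 4) in Ctrl, and Klf6 13644 ± 5488 in a3a6KO and 12937 ± 3905 in Ctrl.

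The third group limits or accompanies the response. Dusp1, a phosphatase that inactivates p38, JNK and ERK in the nucleus, had 11628, 5794 and 9373 in a3a6KO and 8712, 9131, 8342 and 5771 in Ctrl, a log2 fold change of 0.13 (limma, SE 0.25 and adjusted p = 0.933) that turned to −0.09 without a3a6KO replicate 1 and to −0.024 without Ctrl replicate 4. Dusp6, a cytoplasmic phosphatase with a preference for ERK, had 2682, 2478 and 4539 in a3a6KO and 4088, 4437, 3207 and 3015 in Ctrl. Its log2 fold change of −0.23 (limma, SE 0.23 and adjusted p = 0.885) kept its sign in all 7 fits that left out 1 library, where it ran from −0.50 to −0.06. Its highest value was in a3a6KO replicate 3, and the other mutants lay below every control.

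Ier3, an inhibitor of stress-induced cell death, had 9370, 5505 and 12962 in a3a6KO and 5052, 8916, 8376 and 7233 in Ctrl, a log2 fold change of 0.27 (limma, SE 0.30 and adjusted p = 0.890) that turned to −0.0091 without a3a6KO replicate 3. Ier2, a nuclear protein, ranged from 10647 to 19155 in a3a6KO and from 10274 to 18744 in Ctrl, and Ier5, a regulator of HSF1 activity, from 1576 to 3468 in a3a6KO and from 1569 to 2716 in Ctrl. Zfp36, which encodes the RNA-destabilising protein tristetraprolin, averaged 23545 ± 9924 (SD, n = 3) in a3a6KO and 21729 ± 8118 (SD, n = 4) in Ctrl. Btg2, an antiproliferative gene that also responds to p53, had 50406, 19813 and 30008 in a3a6KO and 18207, 35413, 55895 and 28140 in Ctrl, and its lowest and highest values were both controls.

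Promoters of these genes were searched for letters that SRF and CREB are known to bind, in the 250 bases before each RefSeq transcription start (GRCm38.p6). Windows were found for 26 of the 34 members, 19 immediate-early genes and 7 heat shock genes, and for Hspa1b. The 8 members without a window were not searched, so a member not named below may lack a window or lack the element. A gene with several starts has several windows, and a member was counted if any of its windows held the element. The shares of all windows count each window on its own, so the gene counts and window shares are unlike measures. The CREB element TGACGTCA, which reads the same on both strands, stood in a window of 3 of the 19 immediate-early genes (Btg2, Dusp1 and Maff), and in 1.55% of all 32851 windows. A CArG box, the SRF element, stood in windows of Egr2 and Zfp36, and in 1.47% of all windows. The AP-1 element TGANTCA, also searched on both strands, stood in windows of 0 of the 19, against 6.75% of all windows. Elements farther than 250 bases from a start, or with other letters, would not be found this way. The window of Btg2 is shown in full and those of Dusp1 and Zfp36 as the 30 bases around the match, with the element in capitals. GENCODE exons cover 47 of the 250 bases for Dusp1 and all 250 for Zfp36, so the match of Zfp36 lies within annotated exons and within the gene span of the deposited table. They lie at chr1:134079156-134079405, chr17:26508597-26508626 and chr7:28379267-28379296, all on the minus strand.
Btg2: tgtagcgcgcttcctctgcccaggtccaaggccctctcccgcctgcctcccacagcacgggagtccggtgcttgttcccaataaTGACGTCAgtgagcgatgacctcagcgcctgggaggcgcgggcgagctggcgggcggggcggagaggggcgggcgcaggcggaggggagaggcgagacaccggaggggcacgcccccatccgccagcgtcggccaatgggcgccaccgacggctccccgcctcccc
Dusp1: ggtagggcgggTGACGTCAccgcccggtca
Zfp36: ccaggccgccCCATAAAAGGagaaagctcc

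Among the heat shock genes, the Hspa1a row (chromosome 17, 34956429 to 34972340, the stress-inducible HSP70 pair) had 100023, 56230 and 78831 in a3a6KO and 92936, 96473, 59017 and 58709 in Ctrl. The controls formed a high and a low pair, and the mutants covered the same range. Hspa8, the constitutive HSP70, had 54266, 28923 and 31880 in a3a6KO and 32521, 42191, 40281 and 36177 in Ctrl, and averaged 38356 ± 13860 (SD, n = 3) in a3a6KO and 37792 ± 4318 (SD, n = 4) in Ctrl. The means were nearly equal, and the mutants supplied both the highest and the lowest values. Hsph1, the HSP110 nucleotide exchange factor of HSP70, had 7326, 3842 and 9919 in a3a6KO and 3406, 7329, 4995 and 6515 in Ctrl, a log2 fold change of 0.29 (limma, SE 0.35 and adjusted p = 0.896) that turned to −0.0090 without a3a6KO replicate 3.

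The inducible HSP90 gene Hsp90aa1 had 6424, 4619 and 10416 in a3a6KO and 7764, 10488, 5406 and 8914 in Ctrl, a log2 fold change of −0.23 (limma, SE 0.30 and adjusted p = 0.904) that turned to 0.048 without a3a6KO replicate 2. The constitutive Hsp90ab1 had 52457, 35446 and 56221 in a3a6KO and 35226, 47066, 43910 and 45483 in Ctrl, a log2 fold change of 0.14 (limma, SE 0.21 and adjusted p = 0.916). Hsp90ab1 was the 1 heat shock gene of 10 whose sign was kept in all 7 fits that left out 1 library, from 0.016 to 0.35. Per 1000 normalised reads of Hsp90ab1 there were 122, 130 and 185 of Hsp90aa1 in a3a6KO and 220, 223, 123 and 196 in Ctrl, so the 2 genotypes overlapped in this ratio too.

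The HSP40 genes, whose J-domain proteins deliver clients to HSP70, were Dnajb1, with 9496, 3434 and 7763 in a3a6KO and 6999, 10165, 7623 and 5089 in Ctrl, and Dnaja1, with 6131, 3285 and 8618 in a3a6KO and 3474, 6930, 6036 and 5364 in Ctrl. The log2 fold change of Dnajb1 was −0.20 (limma, SE 0.35 and adjusted p = 0.925) and turned to 0.24 without a3a6KO replicate 2. Hspb1, the small heat shock protein HSP27 that holds unfolded proteins and binds actin, varied the least of all members, with 37362, 28831 and 39215 in a3a6KO and 39505, 39330, 34638 and 35217 in Ctrl, a 1.37-fold range.

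Hspd1 and Hspe1 encode HSP60 and HSP10, which together form the mitochondrial chaperonin, and are neighbours that are transcribed away from each other. Hspd1 had 687, 397 and 765 in a3a6KO and 524, 742, 785 and 703 in Ctrl, and Hspe1 865, 614 and 923 in a3a6KO and 684, 1102, 857 and 880 in Ctrl. Both were lowest in a3a6KO replicate 2, and in Ctrl both were lowest in replicate 1. Their log2 fold changes were −0.20 (limma, SE 0.24 and adjusted p = 0.897) and −0.14 (limma, SE 0.20 and adjusted p = 0.914), and they turned to 0.09 and 0.042 without a3a6KO replicate 2.

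Heat shock elements, the alternating GAA and TTC units that HSF1 trimers bind, were common in the promoters of the heat shock genes that had a window. The paired unit GAANNTTC stood in the 250-base windows of 6 of 8 heat shock genes with a window, Hspa1b counted on its own. These were Dnaja1, Hspa1a, Hspa1b, Hspb1, Hspd1 and Hspe1, against 1 of 19 immediate-early genes (Jun) and 6.69% of all windows. Hspa1a and Hspa1b are near-identical genes, so their matches may not be independent. The other pairing, TTCNNGAA, stood in windows of 3 of the 8, against 7.17% of all windows. Each pair reads the same on both strands. Here too members were counted by gene and the shares by window, which are unlike measures. Runs of 3 alternating units with the same spacing stood in windows of Hspd1 and Hspe1, where they overlap the pairs, and in 0.466% of all windows. The RefSeq windows of 300 bases, which run past the start, share 285 bases between one start of Hspd1 and that of Hspe1 on the opposite strand, so their matches are not independent. The windows of Hspa1a and Hspb1 are shown in full, and those of Hsph1 and Hspe1 as the 30 bases around the matches, with the units in capitals, since these are the heat shock genes whose abundance and spread the results describe. They lie at chr17:34972157-34972406 (minus strand), chr5:135887669-135887918 (plus), chr5:149636351-149636380 (minus) and chr1:55088053-55088082 (plus). GENCODE exons cover 40 of the 250 bases for Hsph1 and all 250 for Hspe1, including its matches. They cover 0 of the 250 bases for Hspa1a, but its match lies within the gene span of the deposited Hspa1a row. No count of letters in a promoter says whether HSF1 was bound in these cells.
Hspa1a: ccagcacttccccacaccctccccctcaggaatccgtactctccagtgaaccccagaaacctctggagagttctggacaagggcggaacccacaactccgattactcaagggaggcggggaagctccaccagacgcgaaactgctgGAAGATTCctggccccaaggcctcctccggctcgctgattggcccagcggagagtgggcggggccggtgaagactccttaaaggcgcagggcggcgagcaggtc
Hspb1: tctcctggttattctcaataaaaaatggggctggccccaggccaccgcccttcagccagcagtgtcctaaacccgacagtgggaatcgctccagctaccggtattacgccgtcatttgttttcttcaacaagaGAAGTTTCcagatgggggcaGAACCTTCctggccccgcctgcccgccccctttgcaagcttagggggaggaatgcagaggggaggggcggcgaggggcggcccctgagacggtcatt
Hsph1: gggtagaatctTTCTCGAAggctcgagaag
Hspe1: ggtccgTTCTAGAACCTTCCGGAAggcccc

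Most members shared their lowest library among the mutants, and most immediate-early genes shared an order among the controls. Among the mutants, a3a6KO replicate 2 was the lowest library for 23 of 24 immediate-early genes, with Ier2 as the exception, and for 10 of 10 heat shock genes. Over all genes tested, this library was the lowest mutant in 32.3%, and over genes with a mean value of at least 1000 in 42.1%. Among the controls, replicates 2 and 3 both lay above replicates 1 and 4 for 17 of the 24 immediate-early genes, against 11.0% of all genes and 9.59% of those with a mean of at least 1000, and for 4 of the 10 heat shock genes. When values were taken relative to the number of reads in place of the deposited scaling, a choice made after the data were seen, a3a6KO replicate 2 was the lowest mutant for 20 of 24 and 9 of 10 (21.2% of all genes), and the control pattern held for 17 of 24 and 6 of 10 (14.1% of all genes). These counts describe the libraries, and genes of a family are not independent of one another.

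**Figure D4:**
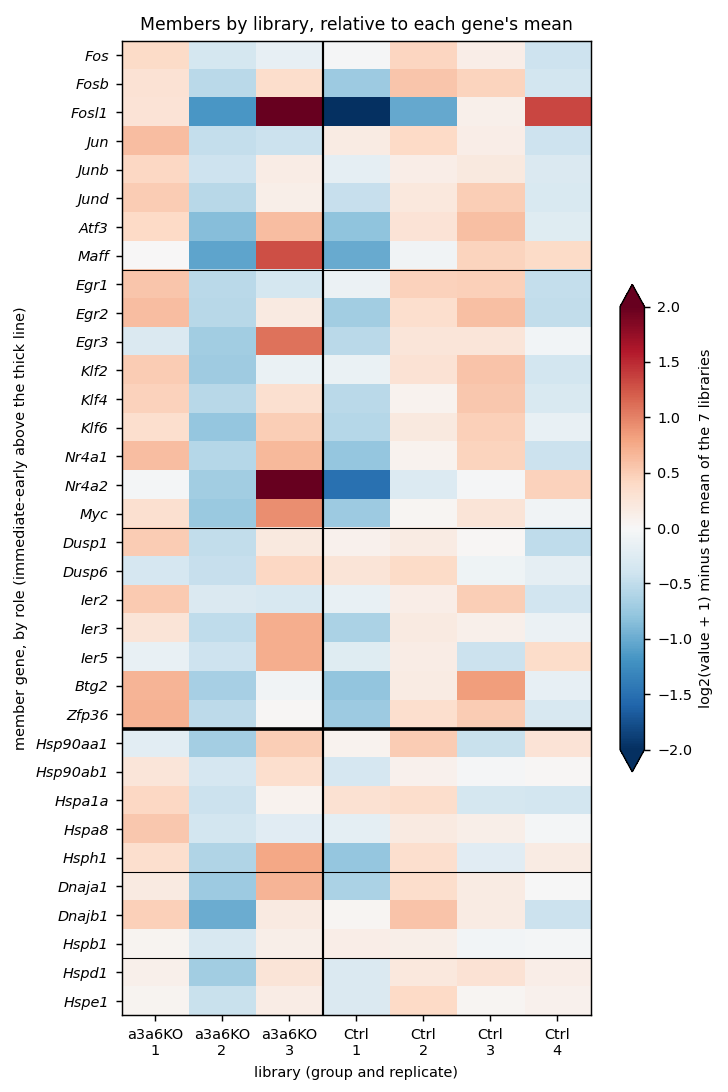
Each member's log2(value + 1) in each library minus its mean over the 7 libraries (colour, with values beyond 2 at the end colours), a3a6KO left of the vertical line and Ctrl right of it, with genes grouped by role. The column of a3a6KO replicate 2 is blue throughout, most immediate-early genes are redder in Ctrl replicates 2 and 3 than in Ctrl replicates 1 and 4, and a3a6KO replicate 3 is darkest for Fosl1 and Nr4a2.

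The immediate-early genes did not all peak in the same library. In a3a6KO replicate 3, 11 of the 24 immediate-early genes (Fosl1, Atf3, Maff, Egr3, Klf6, Nr4a1, Nr4a2, Myc, Dusp6, Ier3 and Ier5) and 3 of the 10 heat shock genes (Hsp90ab1, Hsph1 and Dnaja1) had their highest value of all 7 libraries, against 21.7% of all genes tested. In a3a6KO replicate 1, it was 8 other immediate-early genes, namely Jun, Junb, Jund, Egr1, Egr2, Dusp1, Ier2 and Zfp36, together with Hspa1a and Hspa8, that peaked, against 11.6% of all genes. Relative to the number of reads, a3a6KO replicate 3 was the highest library for 7 of 24 and 2 of 10 (14.4% of all genes), and a3a6KO replicate 1 for 9 of 24 and 2 of 10 (10.5% of all genes). On the deposited scale, 29.4% of genes with a mean of at least 1000 peaked in a3a6KO replicate 3, close to the 3 of 10 heat shock genes. Among the controls, Ctrl replicate 2 was the highest for 8 of 10 heat shock genes and 6 of 24 immediate-early genes. It was the highest control for 20.2% of all genes, a share near that of the immediate-early genes, and for 10.5% of those with a mean of at least 1000. Ctrl replicate 3 was the highest control for 1 of 10 heat shock genes and 15 of 24 immediate-early genes. The share was 25.5% of all genes and 33.2% of those with a mean of at least 1000.

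Depth and markers of other cell types also varied between the libraries. The a3a6KO libraries had fewer recovered reads in replicates 2 and 3 than in replicate 1, which had the highest immediate-early share. Among the controls the order was not the same. Ctrl replicate 4, the deepest of all libraries with 21548279 recovered reads, had the lowest share. Luminal markers summed to 104320, 169200 and 365190 in a3a6KO replicates 1 to 3 and to 195060, 136260, 634880 and 824790 in Ctrl replicates 1 to 4. The lowest luminal sum of each genotype stood in the library with its highest immediate-early share, 5.18% in a3a6KO replicate 1 and 5.02% in Ctrl replicate 2. Ctrl replicate 4, with the highest luminal sum, had the lowest share (2.72%). The remaining libraries broke this order. Both luminal sum and share were higher in a3a6KO replicate 3 (3.48%) than in a3a6KO replicate 2 (2.80%). The same held for Ctrl replicate 3 (4.63%) against Ctrl replicate 1 (3.37%).

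Fibroblast markers summed to 24171, 20972 and 31341 in a3a6KO and to 16645, 17348, 27604 and 20557 in Ctrl, and immune markers to 2404, 1143 and 3162 in a3a6KO and to 834, 885, 2991 and 2240 in Ctrl. Both sums were lowest in a3a6KO replicate 2 among the mutants. The endothelial sum was 10150, 13099 and 14218 in a3a6KO, lowest in replicate 1, and the pericyte sum was 2907, 3987 and 3455, lowest in replicate 1 and highest in replicate 2. All 8 pericyte markers had a fold change above 0, with sums of 1847 to 3410 in Ctrl that overlapped those of a3a6KO. Red blood cell markers, of which 3 of 5 were tested and all 3 had a fold change above 0, summed to 612 to 787 in a3a6KO and 25.1 to 359 in Ctrl, with no overlap. The part of depth and of these cell types in the members' values was not tested. Of the 10 immune markers 5 were tested. Among those not tested, Cd3e, Cd79a, Itgam and Adgre1 had values no higher than 16.5 in any library, and the level of the remaining marker is not given here.

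Beyond the members, 38 other early response genes were all tested, and none passed in limma, edgeR or DESeq2. Their median log2 fold change was 0.20, with 23 above 0 and 15 below. Of the 38, 2 had an unadjusted limma p under 0.05, against 6.32% of all genes tested. Dusp2, a nuclear MAP kinase phosphatase, had 240, 262 and 254 in a3a6KO and 79.3, 134, 118 and 189 in Ctrl, with no overlap and a log2 fold change of 1.02 (limma, SE 0.27 and adjusted p = 0.551). Egr4, the fourth EGR gene, had 191, 145 and 217 in a3a6KO and 89.4, 97.8, 140 and 52.2 in Ctrl, also with no overlap, and a log2 fold change of 1.02 (limma, SE 0.32 and adjusted p = 0.647). These were the 2 genes of the 38 without overlap, where 7.51% of all genes tested had none. Klf10 (0.66, SE 0.37) and the ERK inhibitor Spry4 (0.67, SE 0.40) came next by p among genes with a mean of at least 50, and for both the groups overlapped. Without a3a6KO replicate 3 they were at 0.20 and 0.27, and without a3a6KO replicate 2 both were at 1.06. Spry4 was at 0.39 without Ctrl replicate 1. As with the members, a3a6KO replicate 2 was the lowest mutant for 33 of the 38.

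The kinases and factors upstream of the immediate-early genes varied less between libraries. Of 18 listed, 17 were tested, and their SD of log2 values within groups had a median of 0.17. The median was 0.54 for the immediate-early members, 0.34 for all genes tested and 0.21 for those with a mean of at least 1000. None passed, and the median log2 fold change was 0.15. Map2k2, a kinase that activates ERK, had 2554, 2583 and 2446 in a3a6KO and 2267, 1836, 2147 and 2207 in Ctrl, a log2 fold change of 0.26 (limma, SE 0.12 and adjusted p = 0.785), with no overlap. It was the 1 gene of the 17 without overlap, where 7.51% of all genes tested had none. The library pattern was not seen here, since a3a6KO replicate 2 was the lowest mutant for 5 of 17, against 32.3% of all genes.

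Of 33 other chaperones, co-chaperones and heat shock factors tested, none passed, and the median log2 fold change was 0.07, with 22 above 0 and 11 below. Serpinh1, the collagen chaperone HSP47, had 28448, 23328 and 19456 in a3a6KO and 11542, 14015, 22924 and 16780 in Ctrl, a log2 fold change of 0.57 (limma, SE 0.24 and adjusted p = 0.770). It was the 1 gene of this list with an unadjusted limma p under 0.05, against 6.32% of all genes tested, and the groups overlapped. Cryab, a small heat shock protein abundant in muscle-like cells, had 3912, 4438 and 3277 in a3a6KO and 2282, 3048, 3317 and 3302 in Ctrl (0.38, limma, SE 0.17 and adjusted p = 0.785). Dnaja4 had a log2 fold change of −0.54 (SE 0.30) and Fkbp4, a co-chaperone of HSP90, of 0.22 (SE 0.15). Dnaja4 was at −0.23 without a3a6KO replicate 2 and −0.83 without a3a6KO replicate 3, and Fkbp4 was at 0.11 without Ctrl replicate 1. In this list a3a6KO replicate 2 was the lowest mutant for 19 of 33.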

How the data were processed

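Per the labels, RNA of sorted basal cells was amplified with SMARTer v4. Libraries were assigned to 3 a3a6KO and 4 Ctrl samples by their genotype label. Replicate numbers follow the order of deposition and only name libraries; p-values measure the spread between these samples, described by the submitters as biological replicates. The deposited signal values are gene counts that the authors scaled by DESeq2 size factors, going by the title of the deposited table. The submitters' processing notes list STAR 2.4.0, DESeq2, SAMtools, Picard and FastQC without saying what each did, and build mm10. How reads were counted, and whether by strand, is not given in the sources used here, and reads of overlapping or antisense genes may be mixed.

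Dividing each library by its own smallest step gave whole reads for 100% of values (tolerance 0.01 read). Even numbers made up 61.8% to 63.8% of recovered counts from 1 to 20, an excess that the count tests treat as reads. No molecular identifiers are named.

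Main tests used limma 3.58.1 (R 4.3.3) on log2(value + 1), with the variance trended on expression. They were two-sided, with Benjamini-Hochberg adjustment over the 16889 genes that reached 10 in 3 or more libraries. This scale understates changes of low genes. edgeR 4.0.16 and DESeq2 1.42.0 ran on recovered reads. Scripts were tested on simulated counts. Exon lengths came from GENCODE vM21 and promoters from RefSeq GRCm38.p6.

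The members and lists were chosen with earlier results of these data known. Fold changes are given for the 10 immediate-early and 6 heat shock genes with the smallest unadjusted p, and for at most 4 genes of each other list with a mean of at least 50. Alternatives tried were the count tests, each library left out, library weights, an untrended variance, and different scalings, filters and pseudocounts.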

Additional observations from a re-analysis of the deposited data

How the results depend on the processing

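No member passed an adjusted p of 0.05 in any of the 17 alternatives, where the smallest adjusted p of a member was 0.602. Over the whole table the count was 0 throughout, except 78 with DESeq2, which called no member; the cause was not tested. Scaling moved the median of all genes to no lower than −0.013. Medians ran from −0.11 to 0.41 for the immediate-early genes (0.09 with all libraries) and from −0.21 to 0.19 for the heat shock genes (−0.06 with all libraries) when 1 library was left out, both highest without a3a6KO replicate 2. The immediate-early median was below 0 without a3a6KO replicate 1 (−0.10), a3a6KO replicate 3 (−0.015) or Ctrl replicate 1 (−0.11), and the heat shock median was above 0 without a3a6KO replicate 2 or Ctrl replicate 2 (0.0014).

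Across the fits that left out 1 library, the sign turned at least once for 21 of 24 immediate-early and 9 of 10 heat shock genes. The log2 fold change ran from −0.52 to 0.028 for Jun, −0.53 to 0.015 for Egr1, −0.51 to 0.10 for Klf2, −0.094 to 0.41 for Dusp1, −0.025 to 1.35 for Nr4a2, −0.0091 to 0.61 for Ier3, −0.081 to 0.75 for Myc, −0.0090 to 0.67 for Hsph1, −0.38 to 0.091 for Hspd1, −0.25 to 0.042 for Hspe1, −0.54 to 0.048 for Hsp90aa1 and −0.49 to 0.24 for Dnajb1. Among the other genes given above with a log2 fold change and SE, the sign held. The range was 0.11 to 2.26 for Fosl1, 0.80 to 1.22 for Dusp2 and 0.76 to 1.23 for Egr4. Every member given without a log2 fold change and SE turned at least once, as Fos did (−0.29 to 0.080). With library weights Jun was at 0.018. No paired analysis was possible because the labels give no number shared by samples of the 2 groups.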
